A study of Mus musculus with 3 samples.

Results

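The 10 genes mt-Nd1, mt-Nd2, mt-Nd3, mt-Nd4, mt-Nd5, mt-Cytb, mt-Co1, mt-Co2, mt-Co3 and mt-Atp6 encode respiratory chain and ATP synthase subunits on the mitochondrial genome. They were taken by name and not by a cut on their values, though with earlier results of these data known. They are 10 of the 13 mitochondrially encoded protein genes among the 27998 genes counted. The other 3, mt-Nd4l, mt-Nd6 and mt-Atp8, are given for comparison. Levels were read in CD133+ cells of C57BL/6 mice, in 3 single-cell libraries made with the 10x Chromium 3′ v2 kit. The labels give the tissue as bone marrow, as does the title of the series, while its design text calls the cells intestinal. The young library came from mice of 3 months, and the old library from mice of 27 months in its label and of 18.5 months in the text of the series. The control library is labelled Ctrl and 3 months, and no treatment is named for it. Each library was made from sorted cells of 3 mice pooled, so each group is 1 library, no difference was tested, and age, mice and library cannot be told apart.

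The respiratory chain is built from subunits of both genomes, with the mitochondrial genome supplying hydrophobic core subunits of complexes I, III, IV and V and the nucleus supplying the rest. Mitochondrial DNA is transcribed into long precursors, which are cut, mostly at tRNAs, into mRNAs that receive short poly(A) tails, so mRNAs of one precursor can still differ in level through how long they last. Mpo encodes myeloperoxidase of the primary granules, which neutrophil precursors make at the promyelocyte stage and cease to make as they mature, and mature neutrophils are known for few mitochondria and a reliance on glycolysis.

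The 10 genes lie on 1 strand of chromosome M of GRCm38. On this strand mt-Nd1 is at chrM:2751-3707, mt-Nd2 at chrM:3914-4951, mt-Co1 at chrM:5328-6872, mt-Co2 at chrM:7013-7696, mt-Atp6 at chrM:7927-8607, mt-Co3 at chrM:8607-9390, mt-Nd3 at chrM:9459-9806, mt-Nd4 at chrM:10167-11544, mt-Nd5 at chrM:11742-13565 and mt-Cytb at chrM:14145-15288. None has an intron in the GENCODE M21 annotation. Of their protein-coding neighbours, mt-Atp8 shares 43 bases with mt-Atp6, mt-Nd4l shares 7 with mt-Nd4, mt-Nd6 on the opposite strand shares 14 with mt-Nd5, and mt-Atp6 shares 1 with mt-Co3. Reads in the stretches shared by genes of the same strand cannot be assigned to 1 gene by sequence. The last 60 bases of the annotated gene are shown for 6 genes that carry the contrasts described here. A 3′ kit counts mRNAs by the stretch before their poly(A) tail, which need not be these bases. The features after mt-Co1 and mt-Nd5, mt-Ts1 and mt-Nd6, lie on the opposite strand, so the annotation does not place the end of these mRNAs. Capitals mark the annotated stop codon, or the lone T that becomes one once the tail is added.
mt-Nd1: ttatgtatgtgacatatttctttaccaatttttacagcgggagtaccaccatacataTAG
mt-Nd2: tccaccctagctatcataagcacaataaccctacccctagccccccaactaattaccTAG
mt-Cytb: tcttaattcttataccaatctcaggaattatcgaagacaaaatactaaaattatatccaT
mt-Co1: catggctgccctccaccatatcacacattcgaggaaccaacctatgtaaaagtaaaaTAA
mt-Co2: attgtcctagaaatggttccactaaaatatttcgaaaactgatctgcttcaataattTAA
mt-Co3: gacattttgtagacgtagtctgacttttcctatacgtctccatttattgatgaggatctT
As annotated, mt-Co1 and mt-Co2 end in TAA, mt-Nd1 and mt-Nd2 in TAG, and mt-Co3 and mt-Cytb, like mt-Nd4, in a single T. The TAG of mt-Nd1 and of mt-Nd2 overlaps the tRNA gene that follows on the same strand, mt-Ti and mt-Tw (a gap of -2 bases each). An mRNA cut at the start of that tRNA would not carry this TAG whole. The longest run of A inside the coding sequence was 8 bases in mt-Nd2, 7 in mt-Co1, mt-Nd4 and mt-Nd5, 6 in mt-Nd1 and 4 in mt-Co2. Of the 10 genes, 8 have a near-identical pseudogene in the annotation (at least 95% identity over at least 90 bases), among them Gm28661 for mt-Co2 and Gm28437 for mt-Co3, each 100% identical over the matched stretch. The exceptions were mt-Nd1 and mt-Cytb. Of these copies only Gm4076, the copy of mt-Nd5, was among the genes counted, and it held 0 UMIs in each library.

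The libraries held 8362 young, 10597 old and 10869 control cells. After cells above 20% mitochondrial UMIs and the extremes of the UMI count were left out, 7378, 9681 and 9780 cells with 74708327, 119588365 and 95980225 UMIs remained. The median cell had 10174.5, 12690 and 9560.5 UMIs, and pairs of libraries shared between 120 and 161 cell barcodes. Markers of endothelial cells were close to absent. Cdh5, the endothelial cadherin, had 37 UMIs in the young library, 3 in the control library and 0 in the old one, which allows a level of up to 0.000251 per 10000 UMIs. All 7 endothelial markers summed to 0.0549, 0.0463 and 0.0245 per 10000 UMIs (young, old, control), mostly from Pecam1, and Tek was at 0 in the old and the control library. The 8 genes fixed as markers of late neutrophil precursors, such as Camp, summed to between 1084 and 1227 per 10000 UMIs. Singly they differed more than their sum. On the log2 scale old over young ran from -0.53 for Camp to 1.16 for Mmp8, with a median of 0.46. Of the 8, 2 were below 0 and 4 were higher by 1.5 times or more, against 4.36% of all genes. The young library stood apart. Cells that carried at least 3 markers of 1 other blood lineage at 10 or more per 10000 UMIs made up 10.4% of it, against 0.888% of the old and 1.104% of the control library. Nkg7 was among the NK and T cell markers used to find them. In these cells the 10 genes summed to 225.8, 233.5 and 243.5 per 10000 UMIs (young, old, control), above the levels of each library as a whole given next. Markers of 6 other blood lineages, 39 genes without Nkg7, summed to 20.5, 1.53 and 3.82 per 10000 UMIs, and 9 interferon-stimulated genes to 14.8, 0.583 and 0.822. The part of the latter in the values of the mitochondrial genes was not tested. The main ratios that rest on the young library are also given without such cells. Shares of all genes are given for all kept cells only.

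Together the 10 genes made up 162.4 of every 10000 UMIs in the young library, 136.4 in the old and 168.6 in the control library. The old library was the lowest by this measure. Per cell, however, they amounted to 164.4, 168.6 and 165.5 UMIs, so the old library, which was the most deeply counted, was not the lowest in UMIs per cell. Mitochondrial transcripts of all 13 genes took a median of 1.24% of a young cell's UMIs (quartiles 0.765 and 2.09), 1.08% of an old cell's (0.742 and 1.64) and 1.31% of a control cell's (0.859 and 2.06), with wide overlap between libraries.

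Transcript levels differed widely among the 10 genes, and their order was nearly the same in each library. mt-Atp6, the subunit of the ATP synthase channel, was the most abundant at 48.0 per 10000 UMIs in the young, 39.8 in the old and 47.8 in the control library. It was followed by the complex IV subunits mt-Co3 at 33.8, 29.2 and 34.5 and mt-Co1, which carries the catalytic haem and copper site, at 31.3, 29.2 and 29.4. mt-Co3 and mt-Co1 could not be told apart in the old library, where their 95% Poisson intervals ran from 29.08 to 29.28 and from 29.08 to 29.27. mt-Cytb, the core of complex III, had 14.3, 9.94 and 16.5. The remaining complex IV subunit mt-Co2, which takes electrons from cytochrome c, had 13.3, 12.7 and 14.2, and the complex I subunit mt-Nd1 11.8, 9.42 and 15.3. These middle ranks changed between libraries, since mt-Co2 was above mt-Cytb only in the old library and below mt-Nd1 only in the control library. The other complex I subunits were lower, with 7.21, 4.74 and 7.89 for mt-Nd4 and 1.64, 0.846 and 1.83 for mt-Nd2. mt-Nd3 had 0.495, 0.285 and 0.655 and mt-Nd5 0.503, 0.348 and 0.463. These last genes changed places in the control library, and in the young library their intervals overlapped. Per kilobase of gene, mt-Atp6 and mt-Co3 remained first and second in each library, with 70.5 and 43.1 UMIs per 10000 and kilobase in the young library, while mt-Nd5, the longest gene, came last of the 10 with 0.276. Since a 3′ kit counts mRNAs at their end, UMIs need not scale with length, and these values per kilobase are a description only. The mRNA of mt-Nd5 need not end at the annotated gene end, and UMIs beyond that end were not counted for it. Of the 3 genes outside the list, mt-Nd4l had 0.311, 0.199 and 0.389, mt-Atp8 0.136, 0.109 and 0.132, and mt-Nd6, the gene of the opposite strand, 0.0230, 0.0325 and 0.0325 per 10000 UMIs on 172, 389 and 312 UMIs.

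**Figure D1:**
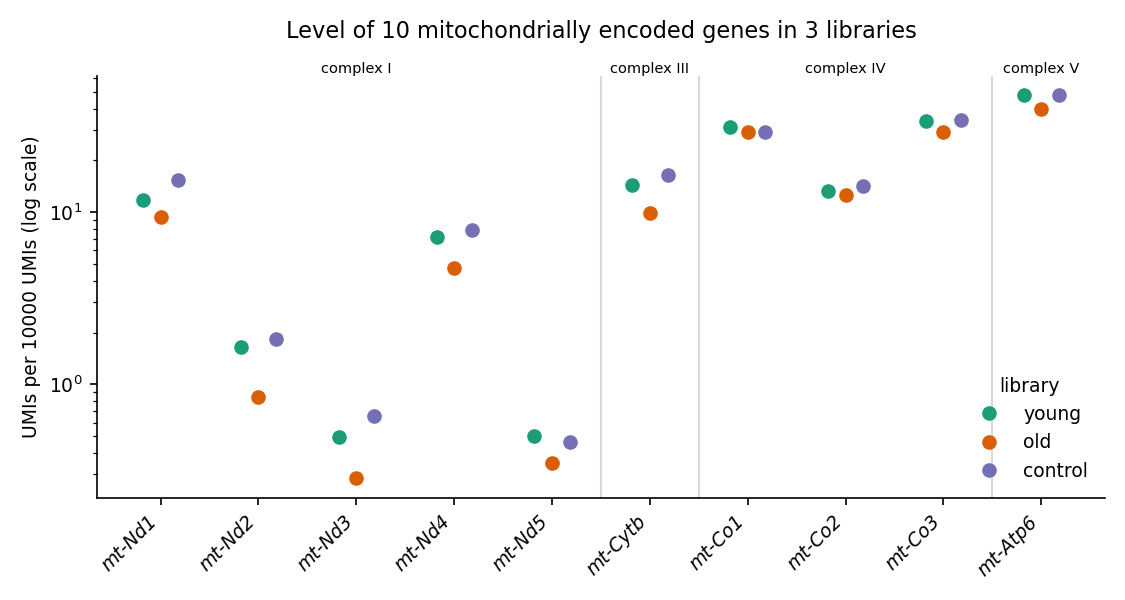
Level of each of the 10 genes in UMIs per 10000 UMIs (vertical axis, log scale) in the young, old and control library, with 1 point per library and genes grouped by complex along the horizontal axis. The old library is the lowest point for each gene, and the gap between libraries is widest for mt-Nd2 and mt-Nd3 and narrowest for mt-Co1 and mt-Co2.

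By complex, the 3 complex IV subunits together had 78.3 per 10000 UMIs in the young, 71.0 in the old and 78.2 in the control library, so that complex IV was about as high in UMIs as its 11 nuclear subunits, which summed to 69.5, 68.2 and 71.5. The 5 complex I subunits had 21.7, 15.6 and 26.2, well under the 78.9, 74.95 and 79.6 of the 36 nuclear subunits listed for that complex. These sums cover different numbers of genes of different length and are no stoichiometry.

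The sort held cells along neutrophil maturation, and cells were placed in 5 bands by their own Mpo level: under 2, 2 to under 5, 5 to under 20, 20 to under 60, and 60 or more UMIs per 10000. From the lowest to the highest band, the young library had 1416, 2701, 1581, 549 and 1131 cells, the old library 2351, 3887, 1833, 943 and 667, and the control library 1430, 3613, 2736, 930 and 1071. The highest band thus held 15.3% of young, 6.89% of old and 10.95% of control cells. Over these bands the primary granule genes used as markers were at 15.6 in the lowest and 494 per 10000 UMIs in the highest band of the young library. Mpo, which set the bands, is in this sum, at 1.06 and 102, so part of the difference follows from the bands themselves. Ctsg, also in the sum, was at 1.35 and 47.1. The markers of late precursors were at 1508 and 243. The order of bands was the same in the old and control libraries. Within a band the late markers still differed between libraries. In the lowest band they summed to 1508, 1344 and 1616 in young, old and control, while Mmp8 alone was at 1.05, 2.76 and 0.594.

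The mitochondrial transcripts were highest in cells with the most Mpo, in each library. From the lowest to the highest band, the 10 genes summed to 111, 115, 145, 223 and 293 per 10000 UMIs in the young library. The old library gave 94.3, 102, 147, 217 and 275, and the control library 113, 120, 158, 253 and 299. The step from under 2 to 2 to 5 was small, and most of the difference lay above 5. All 10 genes were higher at every step of the 5 bands in the old and the control library, and 9 of 10 in the young library, where mt-Nd5 was at 0.395 in the lowest band and 0.389 in the next. Of all genes tested, 45.2% in the old, 39.9% in the control and 30.5% in the young library were higher at every step. Per cell, the upper quartile of the lowest band (129, 108 and 134 per 10000 UMIs in young, old and control) lay below the lower quartile of the highest band (236, 222 and 233). Counted as UMIs per cell, with no scaling, the 10 genes had 99.8 in the lowest and 347 in the highest band of the young, 106 and 399 of the old and 98.2 and 367 of the control library, which is 3.47, 3.77 and 3.74 times more, while the median UMI count of a cell was 1.39, 1.34 and 1.57 times higher.

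**Figure D2:**
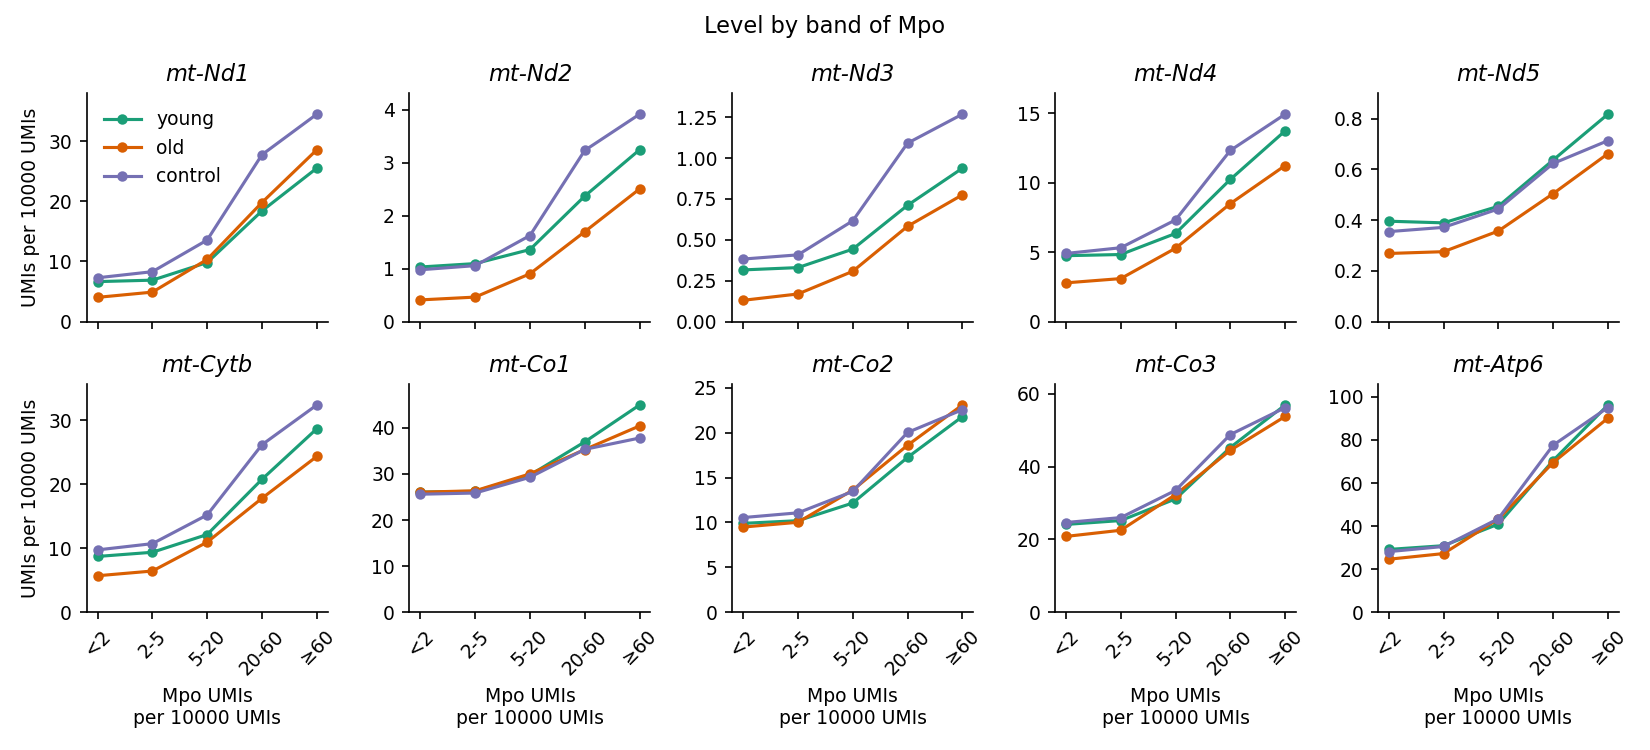
Level of each gene in UMIs per 10000 UMIs (vertical axes, linear and starting at 0) across the 5 bands of Mpo (horizontal axes, UMIs of Mpo per 10000 UMIs), with 1 line for each library. The levels are higher in the top band than in the bottom band for each gene and library, mt-Co1 has the flattest lines, and the old library runs below the others for mt-Nd2, mt-Nd3, mt-Nd4, mt-Nd5 and mt-Cytb.

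The size of this difference varied between genes and, when genes were summed, between complexes. Going from the highest to the lowest band, the complex I genes were together lower by 1.75 on the log2 scale in the young, 2.52 in the old and 1.99 in the control library. For mt-Cytb of complex III these values were 1.72, 2.09 and 1.73, and for mt-Atp6 of complex V 1.72, 1.87 and 1.75. The 3 complex IV genes were together lower by 1.04, 1.06 and 0.94. In the sum of complex I, mt-Nd1 was the largest part. The median log2 ratio of lowest over highest band of the 5 complex I genes was -1.57, -2.58 and -1.73. In the young library this was nearer to 0 than the ratios of mt-Cytb and mt-Atp6. The same held by a small amount in the control library, at -1.730 beside -1.731 for mt-Cytb and -1.754 for mt-Atp6. Complexes III and V are read from 1 gene each. The largest difference of a single gene was that of mt-Nd1, which had 25.5, 28.6 and 34.5 per 10000 UMIs in the highest band and 6.64, 4.02 and 7.28 in the lowest, that is 3.84, 7.10 and 4.74 times less. The smallest was that of mt-Co1, with 44.9, 40.4 and 37.8 in the highest and 26.1, 26.0 and 25.6 in the lowest band, that is 1.72, 1.55 and 1.48 times less. Within complex I the genes were uneven as well, since mt-Nd5 was 2.07, 2.47 and 2.01 times lower and mt-Nd2 3.15, 6.13 and 4.004 times lower.

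Among all genes with at least 0.1 UMI per 10000 in either band, the median log2 ratio of the lowest over the highest band was -0.54 in the young, -0.71 in the old and -0.68 in the control library, so the scale itself moved and the members are read against it. The median of the 10 genes was -1.55, -1.94 and -1.67. A level 1.5 or more times lower in the lowest band was found for 10, 10 and 9 of the 10 genes, the exception being mt-Co1 in the control library, and for 46.7% of all genes in the young, 55.8% in the old and 54.2% in the control library. Without cells of other blood lineages the median of the 10 genes was -1.80 in the young library, -1.96 in the old and -1.68 in the control library. These cells made up 13.6% of the lowest and 3.09% of the highest young band, and at most 1.61% of any band of the other libraries.

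The nuclear genes for subunits of the chain and the ATP synthase, those of complex II included, differed in the same direction between the lowest and the highest band. All 77 of them were lower in the lowest band in each library, where 75.9% of all genes in the young, 76.4% in the old and 75.6% in the control library were. Their medians were -0.73, -0.92 and -0.80. Of the 77, 50, 64 and 56 were lower by 1.5 times or more, against 46.7%, 55.8% and 54.2% of all genes. For complex I the median of the mitochondrial genes was -1.57, -2.58 and -1.73 and that of the nuclear genes -0.72, -0.92 and -0.82. For complex IV the medians were nearer, at -1.14, -1.28 and -1.10 for the mitochondrial and -0.67, -0.86 and -0.62 for the nuclear genes. Both mt-Co1 (-0.79, -0.63 and -0.56) and mt-Co2 (-1.14, -1.28 and -1.10) lay among the nuclear subunits of their complex in each library. These ranged from -1.18 to -0.27 in the young, -1.46 to -0.38 in the old and -1.15 to -0.27 in the control library.

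Factors that act on mitochondrial nucleic acids were also read, from lists written by symbol. Of 20 genes for processing and stability of mitochondrial RNA, 16 could be read (0.1 UMI per 10000 or more in either band) in each library. All 16 were lower in the lowest band, against 75.9%, 76.4% and 75.6% of all genes read with the same limit. A gene near this limit, such as Lrpprc below, can pass it through the highest band alone, and its direction is then fixed. The counts and medians of this list and of those below can therefore lean towards lower values in the lowest band. The medians of the 16 were -1.25, -1.87 and -1.60. Lrpprc, which encodes a protein that stabilises polyadenylated mitochondrial mRNAs and was picked here for that role, had 0.0322, 0.0258 and 0.0369 per 10000 UMIs in the lowest and 0.140, 0.139 and 0.193 in the highest band. For the 9 transcription factors and enzymes of mitochondrial DNA, of which 5, 4 and 5 could be read, the medians were -0.60, -1.42 and -1.67. The list for maintenance of mitochondrial DNA had medians of -0.83, -1.14 and -1.25 over 7, 7 and 6 genes, and the complex IV assembly factors -0.72, -0.99 and -1.01 over 12, 13 and 14. In contrast, the 3 or 4 measurable regulators of mitochondrial biogenesis, among them Gabpa and Gabpb1, had medians of 0.09, -0.01 and -0.02. Singly they differed, with Gabpa at -0.45, -0.46 and 0.06 and Gabpb1 at 0.18, -0.01 and -0.07 in young, old and control.

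Because the complex IV genes together differed less than those of the other complexes, the makeup of the mitochondrial transcripts changed along the bands. Singly this did not hold for all of them, since mt-Nd5 of complex I differed less than mt-Co3 in each library. Complex IV supplied 54.1%, 59.8% and 54.0% of the UMIs of the 10 genes in the lowest band of the young, old and control library, and 42.2%, 42.6% and 38.9% in the highest. Complex I supplied 11.8%, 8.07% and 12.3% in the lowest and 15.1%, 15.9% and 18.5% in the highest band. mt-Co1 accounted for most of the shift in complex IV, with 23.5%, 27.6% and 22.7% in the lowest and 15.4%, 14.7% and 12.6% in the highest band. mt-Atp6 went the other way, from 26.3%, 26.1% and 25.02% to 32.9%, 32.7% and 31.8%.

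**Figure D3:**
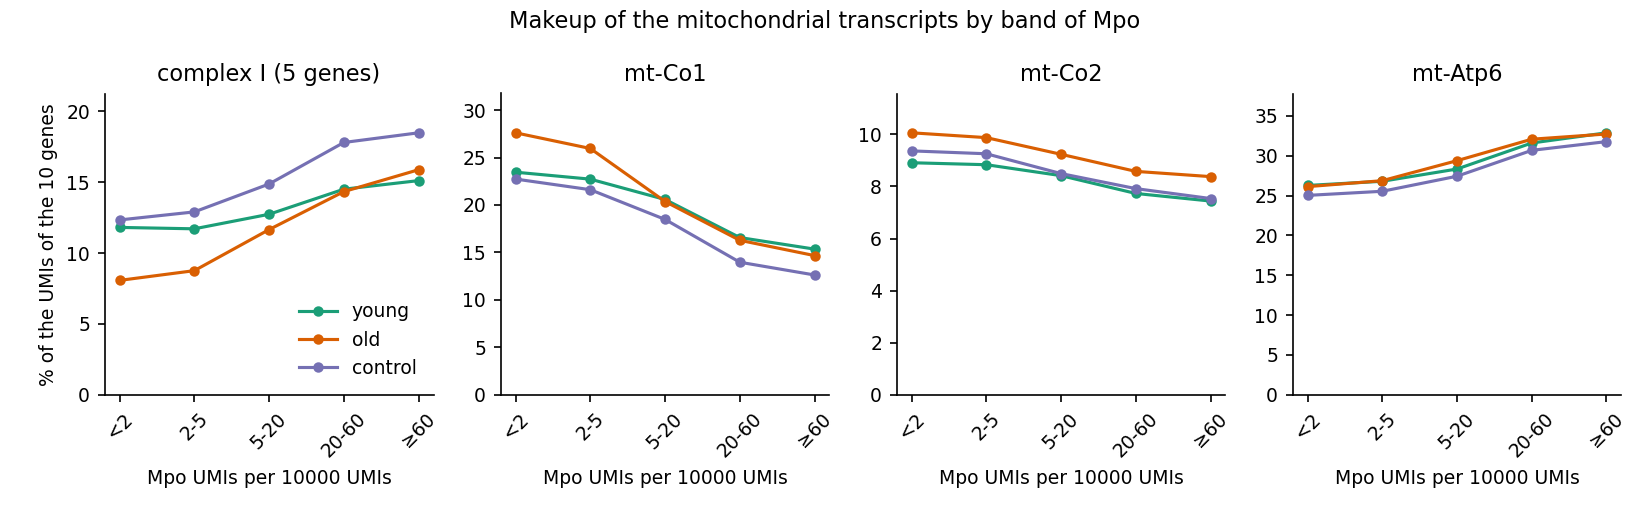
Share of the UMIs of the 10 genes (vertical axes, percent, starting at 0) taken by the 5 complex I genes, mt-Co1, mt-Co2 and mt-Atp6 across the 5 bands of Mpo (horizontal axes), with 1 line for each library. The shares of mt-Co1 and mt-Co2 are larger and those of complex I and mt-Atp6 smaller where Mpo is low, and the old library has the largest share of mt-Co2 in each band.

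mt-Co2 departed from the other genes in the same direction as mt-Co1 and mt-Co3 and by an intermediate amount. Its level was 9.90, 10.2, 12.2, 17.2 and 21.8 per 10000 UMIs from the lowest to the highest band in the young library. It was 9.49, 10.0, 13.6, 18.6 and 23.1 in the old and 10.5, 11.1, 13.5, 20.02 and 22.5 in the control library. Its ratio of the lowest over the highest band was -1.14, -1.28 and -1.10 on the log2 scale, with 95% intervals no wider than from -1.17 to -1.11 in the young library. This exceeded the median of the other 9 genes by 0.43, 0.73 and 0.63, a difference called its departure here. mt-Co1 departed further (0.78, 1.38 and 1.17), mt-Nd5 by 0.52, 0.71 and 0.72, and mt-Co3 by 0.33, 0.64 and 0.54. mt-Co2 had rank 3, 2 and 3 of the 10. Its share of the UMIs of the 10 genes was 8.91%, 10.1% and 9.36% in the lowest and 7.44%, 8.38% and 7.54% in the highest band. Without cells of other lineages its departure was 0.57, 0.74 and 0.65. The 3 complex IV genes and mt-Nd5 had the 4 highest departures in each library, with mt-Co1 first.

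Between libraries, the old cells were compared with the young cells to see how levels differed with the labelled age, and the control library, of the same labelled age as the young, gave the size of a difference between libraries of like age. The old library had the lowest level of the 3 libraries for 10 of 10 genes, where 52.7% of all genes tested did. Outside the list, mt-Nd4l and mt-Atp8, which overlap mt-Nd4 and mt-Atp6 and are not independent of them, were also lowest in the old library. mt-Nd6, of the opposite strand, was not, with 0.0230 per 10000 UMIs in the young and 0.0325 in both the old and the control library. The log2 ratio of old over young was below 0 for 10 of the 10, against 66.4% of all genes, and 3 of the 10, mt-Nd2, mt-Nd3 and mt-Nd4, were lower by 1.5 times or more, against 14.7%. The median of the 10 was -0.43 and that of all genes -0.15. Ordered by complex, the complex I genes were lower by 0.47 in sum, mt-Cytb by 0.53, mt-Atp6 by 0.27 and complex IV by 0.14 on the log2 scale. The lowest ratio was that of mt-Nd2, -0.96 (95% interval -0.99 to -0.92), or 1.94 times less in the old library. It was followed by mt-Nd3 at -0.80, mt-Nd4 at -0.61, mt-Nd5 and mt-Cytb at -0.53 each, mt-Nd1 at -0.33, mt-Atp6 at -0.27, mt-Co3 at -0.21, mt-Co1 at -0.10 and mt-Co2 at -0.07. These intervals are exact and conditional on the sum of both counts, and they cover counting error only, not the variation between mice. Without cells of other blood lineages, 10 of 10 ratios were still below 0, 2 of them by 1.5 times or more, with a median of -0.36. No share of all genes is given beside these counts.

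mt-Nd3, mt-Nd2 and mt-Nd4 were again the lowest when the old library was set against the control library. The median was -0.56 with all 10 ratios below 0, against 58.9% of all genes, and 5 of the 10 were lower by 1.5 times or more, against 8.78%. mt-Nd3 had a ratio of -1.20, mt-Nd2 of -1.12, mt-Nd4 of -0.74, mt-Cytb of -0.73 and mt-Nd1 of -0.70, while mt-Co2 was at -0.17 and mt-Co1 at -0.01. The young and the control libraries are separate, but both comparisons use the old library. Between control and young, of like labelled age, the median was 0.11, 3 of 10 ratios were below 0, against 60.9% of all genes, and 0 were lower by 1.5 times, against 6.62%. These ratios reached 0.40 for mt-Nd3 and 0.37 for mt-Nd1, so a difference of that size arose between libraries labelled with 1 age. Without cells of other lineages the median was 0.18, and mt-Nd3 and mt-Nd1 were at 0.51 and 0.46. Of these 10 ratios 2 were below 0, with no share of all genes to set beside them. For 8 of the 10 genes, and for 65.2% of all genes, the ratio of old over young was larger in size than that of control over young.

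**Figure D4:**
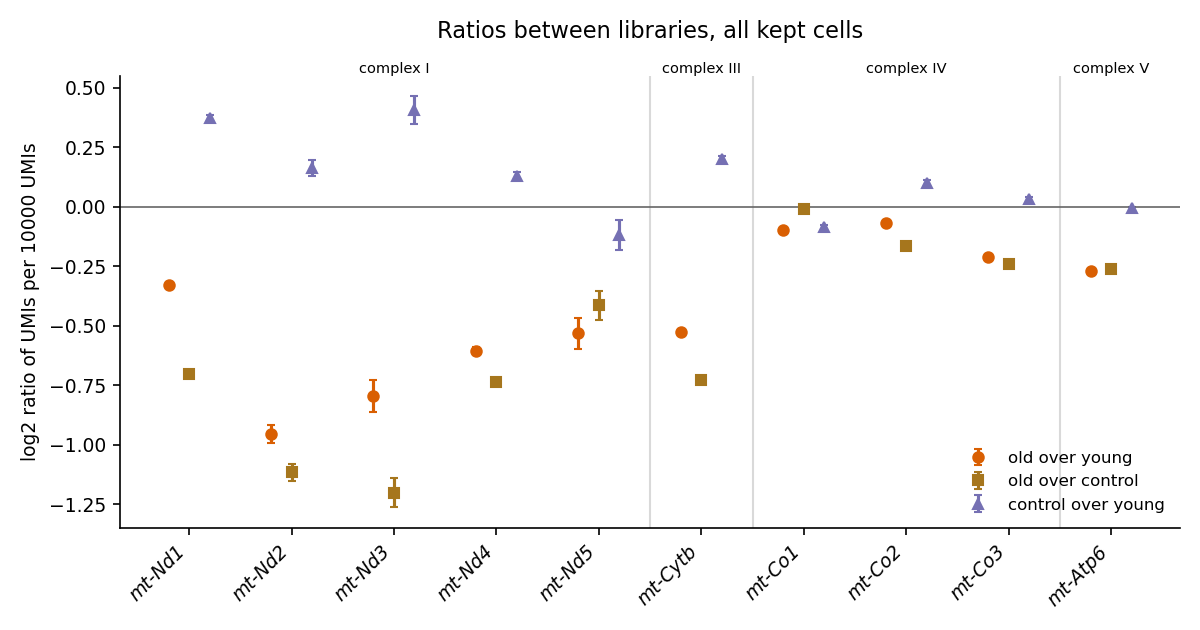
Log2 ratio of UMIs per 10000 UMIs (vertical axis) of each gene for old over young, old over control and control over young, with exact 95% intervals that cover counting error only. The ratios of old over either other library are below 0 for each gene, with complex I genes and mt-Cytb lowest and mt-Co1 and mt-Co2 nearest to 0.

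Over all kept cells, nuclear subunits differed little between the libraries. Of 77, 52 had a ratio of old over young below 0, against 66.4% of all genes. Of these 77, 0 were lower by 1.5 times or more, against 14.7%, and the median was -0.06. They ranged from -0.41 for Ndufs7, a complex I subunit that carries an iron-sulphur cluster, to 0.26 for Uqcrfs1, the Rieske protein of complex III. For complex I the nuclear median was -0.09 beside -0.61 for the mitochondrial genes, and for complex IV -0.05 beside -0.10. Within bands of Mpo these nuclear medians of old over young changed direction. From the lowest to the highest band they were -0.13, -0.09, 0.11, 0.14 and 0.06 for complex I. For complex IV they were -0.09, -0.05, 0.15, 0.16 and 0.12. The mitochondrial medians of complex I in these bands were -0.77, -0.64, -0.35, -0.29 and -0.29. Those of complex IV were -0.06, -0.03, 0.05, -0.02 and -0.08. Of the factors acting on mitochondrial nucleic acids, Tfam, which packages mitochondrial DNA and takes part in starting its transcription, had 0.1799, 0.122 and 0.151 per 10000 UMIs in young, old and control, a log2 ratio of old over young of -0.56 and the lowest among 3 measurable genes of its list, the highest being Mterf4 at -0.20. Rexo2, a mitochondrial oligoribonuclease, had 0.4995, 0.330 and 0.592 per 10000 UMIs and a ratio of -0.60, the lowest of 11 RNA processing genes. Of these 11, 8 were below 0, against 66.4% of all genes, and their median was -0.16 beside -0.15 for all genes. All 10 measurable complex IV assembly factors were below 0 (median -0.24), against the same 66.4%, from Cox18 at -0.58 to Surf1 at -0.11. The 5 measurable genes of mitochondrial DNA maintenance had a median of -0.05, from Dguok at -0.72 to Tk2 at 0.08, and the 3 regulators of biogenesis a median of -0.10.

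The old library also held fewer cells of the highest Mpo band, in which the mitochondrial genes are high, so the libraries were compared within bands. Mpo averaged only 1.06, 1.16 and 1.14 per 10000 UMIs in the lowest band of young, old and control. The band of a cell with few Mpo UMIs depends in part on its UMI count, which differed between libraries. Ratios between libraries within bands were not repeated at equal depth. From the lowest to the highest band the median of the 10 genes for old over young was -0.59, -0.50, -0.07, -0.14 and -0.19, beside -0.18, -0.16, 0.00, 0.01 and -0.03 for all genes. The number of the 10 below 0 was 10, 9, 5, 8 and 8, where all genes gave 66.6%, 66.7%, 50%, 49.2% and 53.2%. Once cells of other lineages were left out, the medians of the 10 were -0.38, -0.28, -0.02, -0.13 and -0.17. The number below 0 was then 8, 8, 5, 8 and 8, without a share of all genes for these cells. The medians were thus lowest in the bands of low Mpo, by less without these cells. The members split by gene. mt-Nd2, mt-Nd3, mt-Nd4, mt-Nd5 and mt-Cytb were below both the young and the control library in each of the 5 bands, which 17.7% of all genes tested and 3 of 77 nuclear subunits were, the latter being Ndufa3, Ndufb10 and Ndufs7, named after their values were seen. The same 5 mitochondrial genes met this description once cells of other lineages were left out, where no share of all genes is given. For mt-Nd2 the ratio of old over young was -1.33 in the lowest and -0.37 in the highest band, and for mt-Cytb -0.61 and -0.24.

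mt-Nd1 was the complex I gene whose ratio changed direction between bands. Its ratio of old over young was -0.72 and -0.49 in the bands of lowest Mpo but 0.07, 0.11 and 0.16 in the next 3, so its pooled ratio of -0.33 combined opposite directions. With cells of other lineages left out, the 5 values were -0.39, -0.21, 0.16, 0.14 and 0.19. Against the control library it was below 0 in each band, from -0.85 in the lowest to -0.27 in the highest. mt-Co1, mt-Co2, mt-Co3 and mt-Atp6 ranged from -0.24 to 0.16 over the bands against the young library, and their order changed from band to band. In the lowest band without cells of other lineages, mt-Co1 and mt-Co2 were each at 0.08 and mt-Co3 and mt-Atp6 at -0.03 and -0.05, beside -0.84 for mt-Nd2 and -1.01 for mt-Nd3.

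**Figure D5:**
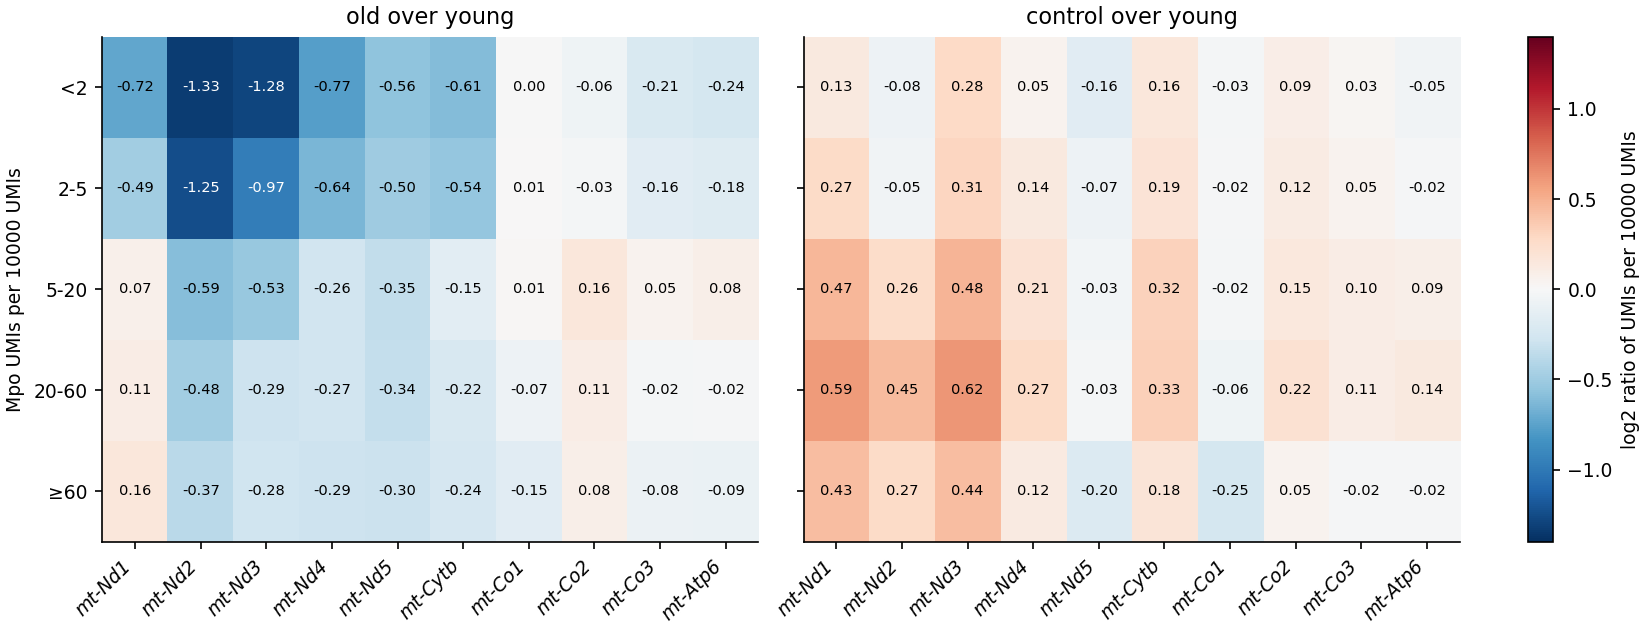
Log2 ratio of UMIs per 10000 UMIs (colour and printed value, blue below 0 and red above) for each gene (horizontal axis) within each band of Mpo (vertical axis), for old over young on the left and control over young on the right. The complex I genes and mt-Cytb are bluest on the left in the rows of lowest Mpo, and on the right mt-Nd1 and mt-Nd3 are red in each row.

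Between libraries, mt-Co2 and mt-Co1 had the ratios of old over young and of old over control nearest to 0. The departure of mt-Co2 from the median of the other 9 genes was 0.46 for old over young, the highest of the 10, with mt-Co1 at 0.43 and mt-Co3 at 0.32. This order turned in cells with 8000 to 14000 UMIs, where the ratio of old over young was -0.16 for mt-Co2 and -0.10 for mt-Co1. For old over control it was 0.54, second to mt-Co1 at 0.69, and for control over young it was -0.03, sixth of the 10. Within bands, from the lowest to the highest, it was 0.55, 0.47, 0.31, 0.33 and 0.32 for old over young, where mt-Co2 ranked first or second, and 0.62, 0.59, 0.41, 0.38 and 0.31 for old over control, where it ranked second in each. For control over young it lay between -0.07 and 0.07. In all bands together, mt-Co2 took 8.18% of the UMIs of the 10 genes in the young, 9.28% in the old and 8.43% in the control library, and mt-Co1 19.3%, 21.4% and 17.4%. The old library had the highest share of mt-Co2 in each of the 5 bands, while its share of mt-Co1 was the highest of the libraries only in the 2 lowest bands. Leaving out cells of other lineages gave departures of mt-Co2 of 0.46 for old over young and 0.54 for old over control, and of 0.47, 0.46, 0.30, 0.32 and 0.31 for old over young in the 5 bands.

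Over the 15 combinations of library and band, each gene followed the sum of the other 9. As a description, with points that share libraries and band limits, the Pearson correlation of log2 levels ranged from 0.91 for mt-Nd3 to 0.999 for mt-Co3, with 0.99 for mt-Co2. Among 1269 other genes with at least 0.5 UMI per 10000 in each combination, the median correlation with the sum was already 0.86. The 5 most alike were Snrpf and Snrpd2, which encode core proteins of the spliceosome, Atp5e, a nuclear subunit of the ATP synthase, Tma7 and Nkg7, at 0.995 to 0.994. For mt-Co2 they were Pfdn1, Rpl36al, Kdelr2, Tomm7, of the import pore of the outer mitochondrial membrane, and Atpif1, the inhibitor of the ATP synthase, at 0.997 to 0.995. Nkg7, which stood on the list of NK and T cell markers, had 7.18, 4.28 and 6.32 per 10000 UMIs and was lower in the lowest than in the highest Mpo band in each library.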

How the data were processed

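The authors aligned the reads with STAR to mm10 and counted UMIs with Cell Ranger 2.1.0, and the counts they deposited are whole UMIs per gene and cell, not normalized. Kept cells had at least 200 genes, at most 20% mitochondrial UMIs and a UMI count between percentiles 5 and 95 (young and old together, control alone). No doublet caller was run, and doublets were not removed beyond this upper limit. UMIs were summed over cells and given per 10000 UMIs. With 1 library per group no test was made. Genes with at least 0.1 UMI per 10000 on either side were counted by a limit of 1.5 times. Intervals (Poisson for levels, conditional binomial for ratios) are exact at 95% and cover counting error only, since mice were pooled. Members, lists and bands were chosen with earlier results of these data known. Named were the 10 genes, the 3 other mitochondrial genes, the highest and lowest of each list by old over young, and the 5 genes most alike by correlation. Gene positions and sequences came from GENCODE M21 (GRCm38, the same assembly as mm10), and near copies were searched with BLAST 2.17.0. Ratios within bands without cells of other lineages were added after seeing the data. Ratios and intervals were tested on simulated libraries. The work was done in Python 3.11.15 with pandas 2.3.3, numpy 2.4.6, matplotlib 3.10.9 and scipy 1.17.1.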

Additional observations from a re-analysis of the deposited data

Results flagged for a closer look

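Between the lowest and the highest band of Mpo, the ratio of old over young had opposite signs for 2 genes. For mt-Nd1 it was -0.723 on the log2 scale in cells under 2 Mpo UMIs per 10000 and 0.163 in cells with 60 or more. For mt-Co2 it was -0.0613 and 0.0835 in the same bands. Without cells of other blood lineages, mt-Nd1 was at -0.387 and 0.188, while mt-Co2 was above 0 in both bands, at 0.0843 and 0.107. Each value rests on 1 library per group, and the difference between the bands was not tested.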

How the results depend on the processing

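Of 4 summary values, the departure of mt-Co2 between bands moved by less than the spread of the 3 libraries in each alternative. The median of old over young (-0.43) kept its sign but ranged widely. It was -0.397 with all deposited cells, -0.445 without the mitochondrial limit, -0.396 with UMI percentiles within each library, -0.361 without other lineages, -0.599 in cells with 8000 to 14000 UMIs, -0.216 as the median over cells (7 genes with a median above 0) and -0.180 with the 5 bands weighted equally. The departure of mt-Co2 for old over young (0.46) was 0.439 in cells with 8000 to 14000 UMIs, 0.341 as the median over cells and 0.357 with bands weighted equally. The median of lowest over highest band (-1.67) was -1.88 over cells and -1.45 with Mpo and the members read from separate parts of 3000 thinned UMIs. Some single ratios changed sign. For mt-Atp6, control over young was 0.0176 with all deposited cells, 0.00814 with percentiles per library, 0.0395 without other lineages and 0.0374 with bands weighted equally. With bands weighted equally, old over young was 0.00781 for mt-Nd1 (-0.33 over all kept cells) and 0.0692 for mt-Co2, and old over control 0.0393 for mt-Co1. The departure of mt-Co2 for control over young was 0.0127 over cells. The causes were not tested. No paired analysis was possible because each condition is 1 library. Depth limits mainly mt-Nd6, with 172 UMIs in the young library. Variation between mice could not be estimated.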

Other observations

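Cells left out for a low UMI count differed between libraries in the level of the 10 genes. The 139 old cells below the limit had 365.2 UMIs of the 10 genes per 10000 and the 544 control cells 337.3, while the 809 young cells had 169.2. Cells left out for a high count had 164.9 (776 old cells), 192.1 (544 control cells) and 194.3 (171 young cells). The low-count cells of the old and control libraries were thus above each band of kept cells, and those of the young library were not. These sets are unlike parts of their libraries. The lower limit was 3826.9 UMIs for young and old and 3422.4 for control. It cut 809 of 8362 young, 139 of 10597 old and 544 of 10869 control cells.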
